A study of Mus musculus with 2 samples.

Results

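The 77 genes described here encode the HSP70 chaperones, their J-domain partners, subunits of the cytosolic chaperonin and the other small and mitochondrial heat shock proteins. They were chosen by symbol alone, as every gene of both count tables named Hspa, Hspb, Hspd, Hspe or Hsph, Dnaja, Dnajb or Dnajc, or Cct with a number, and they make up 77 of 27998 genes. By family, 13 were HSP70 genes, 45 J-domain genes, 8 chaperonin genes or their paralogs and 11 other heat shock protein genes. A total of 69 members had at least 100 unique molecular identifiers (UMIs, each of which marks 1 captured transcript) over both libraries. The other 8 (Hspa1l, Hspb3, Hspb9, Dnajb7, Dnajb8, Dnajc5b, Dnajc22 and Cct8l1) had fewer, and Hspb3 had none. Tcp1, a chaperonin subunit with another name, was counted among the other genes of the pathway.

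The data were single-cell RNA-seq of mouse fetal ovaries at E15.5, when female germ cells are in meiosis. The KO library came from female embryos with a homozygous whole-body deletion of the glucocorticoid receptor (GR, encoded by Nr3c1) and pooled 2 embryos, and the WT library pooled 4 wild-type embryos. Both groups carried the Pou5f1-GFP transgene (labelled OCT4-GFP), by which live germ cells were sorted and then mixed with somatic cells at 60 to 40. Each group was 1 library, so no difference below has a replicate check, no test was run, and embryo, pool, sort and genotype cannot be told apart.

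HSP70 proteins bind exposed stretches of unfolded protein in a cycle driven by ATP, J-domain proteins bring them their substrates and trigger ATP hydrolysis, and exchange factors release the product. Chaperonins are double rings that fold proteins in a closed chamber, with actin and tubulin as well known clients of the cytosolic one. Some members are constitutive, some are induced by heat shock factor 1 under stress, and some are known mainly from male germ cells, such as Hspa2, which is needed for meiosis in spermatocytes.

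The promoters of 7 members are shown here, in 6 stretches, because the stress-inducible, mitochondrial and endoplasmic reticulum members are described below by whether they moved together. Sequences are from RefSeq on GRCm38.p6, 5′ to 3′ on the strand of the gene, and each stretch ends 1 base before the annotated start. The stretch named Hspd1-Hspe1 is the 215 bases between the divergent starts of these genes, on the strand of Hspe1, and Hspd1 has a further annotated start. Capitals mark a heat shock pair of 2 units (GAANNTTC or TTCNNGAA) in Hspa1a, Hspa1b and Hspb1, overlapping heat shock elements of 3 units (GAANNTTCNNGAA or TTCNNGAANNTTC) in Hspd1-Hspe1, and the endoplasmic reticulum stress element (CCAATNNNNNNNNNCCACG) in Hspa5 and Dnajc3.
Hspa1a, chr17:34972157-34972306, minus strand: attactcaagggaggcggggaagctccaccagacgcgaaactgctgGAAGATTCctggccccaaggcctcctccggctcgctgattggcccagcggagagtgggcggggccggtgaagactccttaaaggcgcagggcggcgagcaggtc
Hspa1b, chr17:34959239-34959388, minus strand: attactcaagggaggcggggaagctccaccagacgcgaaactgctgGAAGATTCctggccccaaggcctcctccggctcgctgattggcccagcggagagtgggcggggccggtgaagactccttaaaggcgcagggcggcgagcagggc
Hspb1, chr5:135887769-135887918, plus strand: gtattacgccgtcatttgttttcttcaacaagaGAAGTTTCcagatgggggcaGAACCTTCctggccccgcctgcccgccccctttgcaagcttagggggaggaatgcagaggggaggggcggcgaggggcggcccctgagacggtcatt
Hspd1-Hspe1, chr1:55087933-55088147, plus strand: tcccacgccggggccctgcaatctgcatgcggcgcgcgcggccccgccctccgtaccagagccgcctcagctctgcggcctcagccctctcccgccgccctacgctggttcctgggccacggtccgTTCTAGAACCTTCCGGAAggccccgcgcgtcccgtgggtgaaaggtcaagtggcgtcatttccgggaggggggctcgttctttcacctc
Hspa5, chr2:34771990-34772089, plus strand: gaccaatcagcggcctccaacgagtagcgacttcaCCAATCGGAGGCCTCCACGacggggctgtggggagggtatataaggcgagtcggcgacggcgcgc
Dnajc3, chr14:118937782-118937931, plus strand: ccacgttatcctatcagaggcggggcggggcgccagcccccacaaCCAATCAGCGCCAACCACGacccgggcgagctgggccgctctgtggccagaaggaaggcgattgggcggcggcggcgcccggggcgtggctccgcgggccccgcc

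A promoter was listed for 64 of the 77 members, 83 promoters in all, and the 250 bases before each start were searched on both strands. The 3-unit heat shock element was found in 4 of these 83 promoters (4.82%), those of Dnajb6, Hspd1 and Hspe1, and in 0.466% of 32851 promoters of all genes. The Dnajb6 promoters overlap and hold the same element, and Hspd1 and Hspe1 share theirs, so these are not 4 separate sites. Overlapping promoters were counted separately, for members and for all genes alike. The shorter 2-unit pair lies inside every 3-unit element, and was found in 22.9% of the member promoters and in 12.8% of all promoters. Among the stress-inducible members, Hspa1a, Hspa1b, Hspb1, Hsph1 and Dnajb4 held a pair in at least 1 promoter, and Dnajb1 held none in this window. Hspa1a and Hspa1b, whose starts lie 12.9 kb apart, were identical at 247 of the 250 bases. The endoplasmic reticulum stress element was found in 2 member promoters, those of Hspa5 and Dnajc3 (2.41%), and in 0.113% of all promoters. A match of letters is a description and not a measured binding site.

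Of the deposited barcodes, 9045 WT and 15502 KO cells passed the limits of the study, with a median of 15685 and 10194.5 UMIs. The libraries shared 27 of these barcodes, and doublet calls covered 2.60% of WT and 6.60% of KO cells. Classes were rebuilt by clustering without the 77 members and named from markers, so that values may depart from those of the study through these names. They held 6788 WT and 10195 KO germ-like cells, 943 and 2046 granulosa-like, 823 and 1888 theca-like, and 398 and 1085 epithelia-like cells. Between 8.54% and 16.8% of the cells in the 3 main somatic classes carried germ cell markers above 20% of the germ-like median (mixed cells), more in KO than in WT for each class. Summed germ cell markers in these classes were between 9.44% and 23.4% of the germ-like level, higher in KO for each class, and 1.57% to 2.63% without mixed cells, and somatic values that turn on them are also given without them. Nr3c1 was at 71.9 UMIs per 1000000 UMIs of the class (CPM) in WT and 11.6 CPM in KO germ-like cells, and KO was at 23.9% to 25.5% of WT in the main somatic classes. UMIs lie near the 3′ end and do not show whether an exon was lost. CPM intervals are exact 95% Poisson intervals, and all intervals cover counting error only.

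The stress-inducible members split between germ cells and soma. Hspa1a, Hspa1b and Hspb1 were close to absent from germ-like cells and present in somatic cells, whereas Dnajb1, Dnajb4 and Hsph1 were at similar levels in both. Hspa1a, an HSP70 strongly induced by heat, was at 1.09 CPM in WT and 1.07 CPM in KO germ-like cells. It was at 31.2 and 33.6 CPM in granulosa-like cells, 42.5 and 26.7 CPM in theca-like cells, and 14.3 and 14.8 CPM in epithelia-like cells of WT and KO. Immune-like cells, only 31 in WT and 50 in KO, held the highest level at 346 CPM (292 to 406) and 234 CPM (195 to 279). A single WT cell held 87 of the 164 UMIs of Hspa1a and Hspa1b in this class. In KO without mixed cells, a single cell held 34 of 135. Germ-like cells were the lowest in both libraries, and the mean of the 3 main somatic classes was 27.0-fold higher in WT and 23.4-fold higher in KO (log2 germ over soma −4.75 and −4.55).

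Hspa1b, which encodes nearly the same protein as its neighbor, was at 0.681 and 0.617 CPM in germ-like cells of WT and KO. In granulosa-like cells it was at 15.3 and 13.6 CPM, in theca-like cells at 8.02 and 6.30 CPM, and in epithelia-like cells at 3.96 and 6.41 CPM. Both copies were thus low in the same class (log2 germ over soma −3.74 and −3.83 for Hspa1b), although Hspa1a was highest in theca-like and Hspa1b in granulosa-like cells among the 3 main somatic classes of WT. The last 500 bases of their transcripts did not match each other over 200 bases at 95% identity, so counts of the copies were not treated as shared.

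Hspb1, the small heat shock protein that binds unfolding proteins and actin filaments, was at 3.44 and 4.10 CPM in germ-like cells. It was at 334 and 355 CPM in granulosa-like cells and at 354 in epithelia-like cells of both libraries, but at 33.4 and 38.2 CPM in theca-like cells, so the theca-like class stood between germ-like cells and the other somatic classes. At least 1 Hspb1 UMI was found in 89.7% and 85.4% of granulosa-like cells and in 4.12% and 3.74% of germ-like cells, although germ-like cells were deeper (median 17100.5 and 11314 UMIs, against 12668 and 8503). With each cell thinned to 3000 UMIs the shares were 56.9% and 60.2% against 0.678% and 1.08%. The soma-to-germ ratio of Hspb1 (69.8 and 60.6-fold) was of the order of that of Serpinh1, the collagen chaperone of somatic cells (88.0 and 66.0-fold). The log2 ratio of germ over soma for Hspb1 was −6.13 and −5.92, and −6.63 and −6.51 without mixed cells.

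Dnajb1, the main inducible J-domain partner of HSP70, was at 76.3 and 76.4 CPM in germ-like cells, 120 and 93.5 CPM in granulosa-like, 52.6 and 53.0 CPM in theca-like and 67.4 and 69.6 CPM in epithelia-like cells. Its germ-like level lay inside the somatic range (log2 germ over soma −0.07 and 0.09). Dnajb4, another cytosolic J-domain protein, was at 95.9 and 91.4 CPM in germ-like cells and between 68.8 and 114 CPM in the 3 somatic classes. Hsph1, the HSP110 exchange factor, was at 59.6 and 59.0 CPM in germ-like cells and between 32.4 and 43.5 CPM in those classes (log2 germ over soma 0.60 and 0.62). Over the 6 stress-inducible members the median log2 ratio of germ over soma was −1.91 in WT and −1.87 in KO, a value between these groups of 3 that describes neither, beside 0.04 and −0.06 over all genes.

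**Figure D1:**
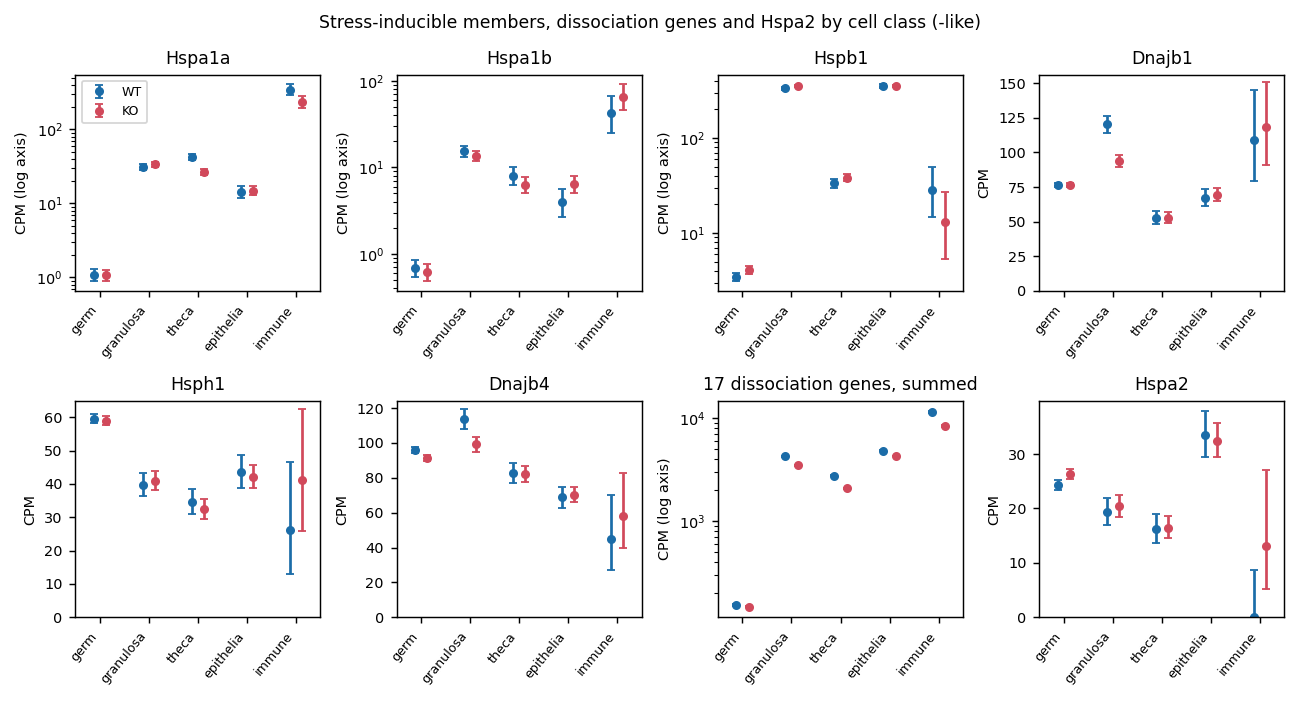
Level in CPM (y axis, log in the panels of Hspa1a, Hspa1b, Hspb1 and the summed dissociation genes, linear from 0 in the others) of the 6 stress-inducible members, the 17 dissociation genes summed and Hspa2 in 5 cell classes (x axis), with a point for each library and bars for the exact 95% Poisson interval. Hspa1a, Hspa1b, Hspb1 and the summed dissociation genes sit far lower in germ-like cells than in the 3 main somatic classes, and Dnajb1, Dnajb4 and Hsph1 do not.

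Genes known to respond to the preparation of cells were also low in germ cells. Cells were released with warm trypsin, which is known to induce immediate early genes, and 17 such genes (Fos, Jun, Egr1 and others) summed to 152 and 146 CPM in germ-like cells of WT and KO. They summed to 4261 and 3470 CPM in granulosa-like, 2753 and 2071 CPM in theca-like, and 4817 and 4295 CPM in epithelia-like cells, and to 11552 and 8447 CPM in immune-like cells, the class with most Hspa1a. All 17 were lower in germ-like than in somatic cells past the log2 limit of 1, with a median log2 ratio of −5.44 in WT and −4.97 in KO. The 3 main somatic classes thus held these genes as well as Hspa1a, Hspa1b and Hspb1, but the levels did not run in step over all classes. Hspb1 was at 28.4 and 13.1 CPM in immune-like cells, where the immediate early genes were highest, and the 30 WT endothelia-like cells had 4654 CPM of these genes but only 3 UMIs of Hspa1a and Hspa1b together. The endothelia-like class of KO differed from that of WT. Without mixed cells, its 109 cells had 3956 CPM of the immediate early genes and 76 UMIs of Hspa1a and Hspa1b. The part of the preparation in the somatic levels was not tested.

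The 2 inducible HSP70 copies were unevenly spread over somatic cells. Without mixed cells, at least 1 UMI of Hspa1a or Hspa1b was found in 28.2% of WT and 23.5% of KO granulosa-like cells, and in 2.50% and 1.80% of germ-like cells. With each cell thinned to 3000 UMIs the shares were 9.72% and 12.3% against 0.551% and 0.565%, so no order between the libraries can be read from them. No cell class that lacks both genes was available, so the share that free RNA gives was not measured. The 5% of granulosa-like cells with most of these UMIs held 49.9% and 50.1% of them, and single cells reached 22 UMIs in WT and 9 in KO. In theca-like cells the top 5% held 57.6% and 65.6%. In thinned granulosa-like cells with such a UMI, Dnajb1 was at 197 CPM (146 to 260) in WT and 162 CPM (133 to 196) in KO, against 108 (95.1 to 122) and 93.3 (84.7 to 103) CPM in those without. In theca-like cells the levels of Dnajb1 were 46.9 and 49.5 CPM with such a UMI and 47.8 and 42.0 CPM without, with intervals that overlapped. The immediate early genes in the same granulosa-like cells were at 5120 CPM (4843 to 5409) in WT and 4165 CPM (4009 to 4325) in KO with such a UMI, against 4641 (4553 to 4729) and 3984 (3927 to 4042) CPM without, so the intervals overlapped in KO. They were also higher in theca-like cells with such a UMI, at 3502 and 2734 against 2941 and 2462 CPM, with intervals that did not overlap. In epithelia-like cells they were at 5778 and 5174 against 5085 and 4688 CPM, with intervals that overlapped in WT.

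Across all members, the comparison of germ-like cells with the mean of the 3 main somatic classes counted 64 genes, and a gene was counted as higher or lower where the log2 ratio passed 1 in both libraries. By this rule 15 members were higher in germ-like cells, against 22.4% of all genes, and 11 were lower, against 30.1% of all genes. That is 23.4% and 17.2% of the members. The median log2 ratio of the members was 0.28 in WT and 0.36 in KO. By role, the members that were higher came to 3 of 7 in the endoplasmic reticulum list, 3 of 5 in the germ cell and testis list, 2 of 6 in the chaperonin list and 2 of 8 in the mitochondrial list. In the cytosolic list 1 of 8 was higher, as was 1 of 4 nuclear J-domain members and 1 of 4 small heat shock proteins, and none of 3 in the endocytic list. No member of these lists was lower except 2 of the small heat shock proteins, Hspb1 and Hspb8. The remaining counted members did not pass the limit in both libraries, and the 13 members not counted had under 100 UMIs over these classes in at least 1 library.

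**Figure D2:**
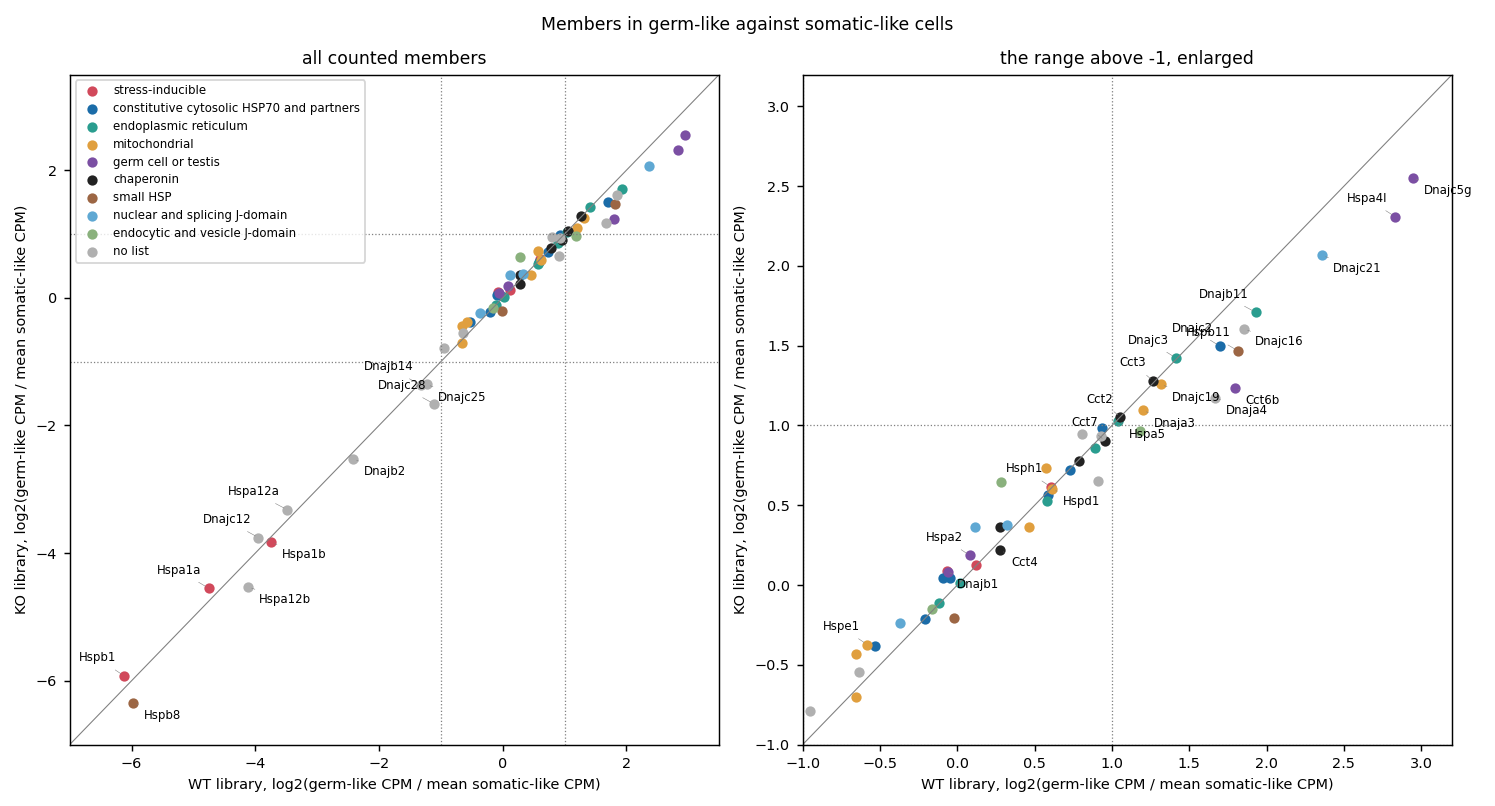
Log2 ratio of the level in germ-like cells over the mean of the 3 main somatic classes, in the WT library (x axis) and the KO library (y axis), with a point without error bars for each member counted, coloured by list, the diagonal of equal values in grey and dotted lines at -1 and 1; the right panel enlarges the range above -1. The median over members is 0.28 in WT and 0.36 in KO, and Hspb1, Hspb8 and Hspa1a lie at the low end.

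Among the cytosolic members, Hspa8, the constitutive HSP70, hardly varied: 975 and 1106 CPM in germ-like cells, 1081 and 1126 in granulosa-like, 911 and 922 in theca-like and 1130 and 1166 in epithelia-like cells of WT and KO. Dnaja1, a general J-domain partner, was lower in germ-like cells (449 and 485 CPM) than in granulosa-like (729 and 679), theca-like (534 and 519) and epithelia-like cells (681 and 699), without passing the limit. Dnajc2, which brings HSP70 to the ribosome, was the one of this list that was higher in germ-like cells, at 356 and 368 CPM against 104 and 121 in granulosa-like, 108 and 138 in theca-like and 118 and 131 CPM in epithelia-like cells (log2 1.70 and 1.5). Hspa8, Dnaja1 and Dnajc2 have near-identical copies of their 3′ ends elsewhere in the genome, as do Dnajb6, Dnajc8, Dnajc17, Dnajc19, Hspa9, Hspb1, Hspd1 and Hspe1. None of these 25 copies is in the count table, and the levels of these 11 members are uncertain to that extent.

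Germ-like cells held more of the chaperones of the endoplasmic reticulum. Hspa5, the HSP70 of this compartment (BiP), was at 1340 and 1545 CPM in germ-like cells, 612 and 725 in granulosa-like, 716 and 851 in theca-like and 630 and 700 CPM in epithelia-like cells (log2 1.04 and 1.03). These ratios were just past the limit, and that of WT was 0.96 with median-of-ratios size factors. Dnajb11, a J-domain partner of BiP, was at 345 and 364 CPM in germ-like cells and between 82.0 and 140 CPM in the 3 somatic classes (log2 1.93 and 1.71). Dnajc3, the other member with the stress element in its promoter, was at 192 and 218 CPM against 66.3 to 88.9 CPM (log2 1.42 in both). These ratios were larger without mixed cells, at 2.50 and 2.52 for Dnajb11 and 1.77 and 1.93 for Dnajc3. The list did not move as 1, since Dnajb9, another partner of BiP, was at 46.5 and 43.4 CPM in germ-like cells and between 35.1 and 56.0 CPM in the main somatic classes.

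The mitochondrial members went in both directions. Hspd1 (HSP60), the chaperonin of the mitochondrial matrix, was at 630 and 680 CPM in germ-like cells, 370 and 408 in granulosa-like, 348 and 391 in theca-like and 514 and 546 CPM in epithelia-like cells. Hspe1 (HSP10), the lid of that chaperonin, ran the other way, at 445 and 512 CPM in germ-like cells against 628 and 641, 581 and 586, and 794 and 763 CPM. The number of Hspe1 UMIs per Hspd1 UMI was therefore 0.707 in WT and 0.753 in KO germ-like cells, and between 1.40 and 1.69 in the 3 somatic classes of both libraries. Without mixed cells the somatic ratios were 1.47 to 2.00. The genes share the stretch printed above, so the ratio between 2 genes transcribed from opposite sides of 1 promoter region differed between classes. The ratio of UMIs is not the ratio of the proteins.

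Dnajc15, a J-domain protein of the import motor of the inner membrane, was at 616 and 591 CPM in granulosa-like cells, 342 and 315 in epithelia-like, 228 and 256 in germ-like and 117 and 133 CPM in theca-like cells. Its relative Dnajc19 had another order, with 280 and 292 CPM in germ-like cells and between 108 and 136 CPM in the 3 somatic classes (log2 1.32 and 1.26). Dnaja3 was the other mitochondrial member that was higher in germ-like cells (log2 1.20 and 1.09), and it overlaps Vasn on the same strand.

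The members named for the germ line or testis were not all germ cell genes in the fetal ovary. Hspa2 was at 24.3 CPM (23.4 to 25.2) in WT and 26.3 CPM (25.4 to 27.2) in KO germ-like cells, 19.3 and 20.4 in granulosa-like, 16.2 and 16.5 in theca-like, and 33.4 (29.4 to 37.9) and 32.4 (29.4 to 35.6) CPM in epithelia-like cells. Germ-like cells thus lay inside the somatic range in both libraries (log2 0.08 and 0.19), and the epithelia-like class was the highest. In thinned cells a UMI of Hspa2 was found in 6.26% and 7.24% of germ-like, 7.79% and 9.59% of epithelia-like, 5.62% and 5.43% of granulosa-like and 4.01% and 4.40% of theca-like cells. Before thinning the shares were 29.6% and 24.1% in germ-like and 36.9% and 27.9% in epithelia-like cells.

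Hspa4l, an exchange factor of the HSP110 family abundant in testis, was a germ cell gene here, with 120 and 124 CPM in germ-like cells, 18.5 and 26.7 in granulosa-like, 19.3 and 31.6 in theca-like and 12.8 and 16.4 CPM in epithelia-like cells. Its log2 ratio was 2.83 in WT and 2.31 in KO, and 4.19 and 3.94 without mixed cells. Dnajc5g, a testis relative of the vesicle chaperone CSP, was at 7.57 and 9.78 CPM in germ-like cells and between 0.682 and 2.43 CPM in the 3 somatic classes (log2 2.94 and 2.55). Cct6b, the testis paralog of a chaperonin subunit, was at 3.35 and 3.57 CPM against 0.417 to 1.89 CPM (log2 1.80 and 1.24). Dnajb3 was at 11.8 and 12.8 CPM in germ-like cells and between 7.64 and 16.8 CPM in the somatic classes. Dnajb13, of the radial spokes of the sperm tail, was at 0.415 and 0.724 CPM in germ-like cells. The testis members Hspa1l, Hspb9, Dnajb7, Dnajb8 and Dnajc5b had 1 to 18 UMIs per library, which does not show whether they were expressed.

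The chaperonin subunits were higher in germ-like cells, to unequal extents. Cct2 was at 584 and 617 CPM in germ-like cells and between 261 and 315 CPM in the 3 somatic classes, and Cct3 at 713 and 785 CPM against 279 to 340 CPM. These passed the limit (log2 1.05 in both libraries for Cct2, 1.27 and 1.28 for Cct3), although Cct2 in WT was at 0.98 with median-of-ratios size factors. Cct7 (log2 0.95 and 0.90) and Cct8 (0.79 and 0.78) were close to it, while Cct4 (0.28 and 0.22) and Cct5 (0.28 and 0.36) were not. Cct4 was at 258 and 243 CPM in germ-like cells and between 202 and 217 CPM in the somatic classes. Subunits that assemble into 1 ring thus differed in their ratio of germ over soma. Tcp1, a further subunit, was at 754 and 740 CPM against 237 to 334 CPM. The list held 6 subunits, and no gene named Cct6a was among the members. The list median was 0.87 in WT and 0.84 in KO, and 1.01 and 1.05 without mixed cells.

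Other members differed between classes as well. Dnajc21, of ribosome maturation, was at 590 and 612 CPM in germ-like cells and between 94.4 and 179 CPM in the 3 somatic classes (log2 2.36 and 2.07). Hspb11, which despite its name is a subunit of intraflagellar transport, was at 436 and 370 CPM against 116 to 141 CPM (log2 1.82 and 1.47). Dnajc16 (1.86 and 1.61) and Dnaja4 (1.67 and 1.17) completed the members higher in germ-like cells. On the somatic side, Hspb8, the partner of Bag3 in selective autophagy, was at 22.8 and 22.7 CPM in epithelia-like cells, between 6.5 and 7.95 in the granulosa-like and theca-like classes and at 0.191 and 0.156 CPM in germ-like cells. Hspa12b, an HSP70 relative of endothelium, was at 43.1 and 30.9 CPM in endothelia-like cells and lower in every other class. Hspa12a was at 12.1 and 9.64 CPM in theca-like cells and Dnajc12, a partner of aromatic amino acid hydroxylases, at 12.6 and 10.1 CPM in granulosa-like cells, against 0.494 to 0.564 CPM for both in germ-like cells. Dnajb2 (log2 −2.42 and −2.52), Dnajb14 (−1.33 and −1.36), Dnajc25 (−1.23 and −1.36) and Dnajc28 (−1.12 and −1.66) were lower in germ-like cells as well, but Dnajc28 in WT was at −0.46 with each cell thinned to 3000 UMIs, short of the limit. Dnajc25 overlaps Gm20503 and Hspa12b overlaps Gm11037, each on the same strand. Dnajc6, the clathrin-uncoating protein auxilin, was at 3.41 and 3.5 CPM in epithelia-like cells and at or below 0.764 CPM in the other large classes. The muscle proteins Hspb7 and Hspb2 rested on few UMIs in the 17 WT and 49 KO perivascular-like cells. Hspb7 was at 19.8 CPM (8.56 to 39.1) in KO from 8 UMIs and had 2 UMIs in WT, and Hspb2 had 2 UMIs in each library, too few to place it among the classes.

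Of 34 other genes of the pathway, 7 were higher and 7 lower in germ-like cells by the same rule, against 22.4% and 30.1% of all genes. The genes named next thus describe single levels and no excess over all genes. The HSP90 genes went opposite ways. Hsp90aa1, the inducible cytosolic HSP90, was at 3738 and 4158 CPM in germ-like cells against a somatic mean of 1201 and 1347 CPM, and Hsp90ab1, the constitutive one, at 1551 and 1563 CPM against 3671 and 3717 CPM (log2 1.64 and 1.63, −1.24 and −1.25). The others that were higher were Tcp1, Trap1, Bag4, Grpel2, Vbp1 and Hsf5, a heat shock factor of germ cells, which was at 13.6 and 10.4 CPM against 1.49 and 1.79 CPM. The others that were lower were Stub1, Bag2, Ahsa1, Pdcl3, Serpinh1 and Bag3, a stress-inducible exchange factor and partner of Hspb8, at 1.82 and 1.41 CPM against 21.2 and 18.9 CPM. Hsf1, the factor that binds heat shock elements, was at 11.8 CPM in germ-like cells of both libraries and 13.4 and 12.3 CPM in the soma.

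**Figure D3:**
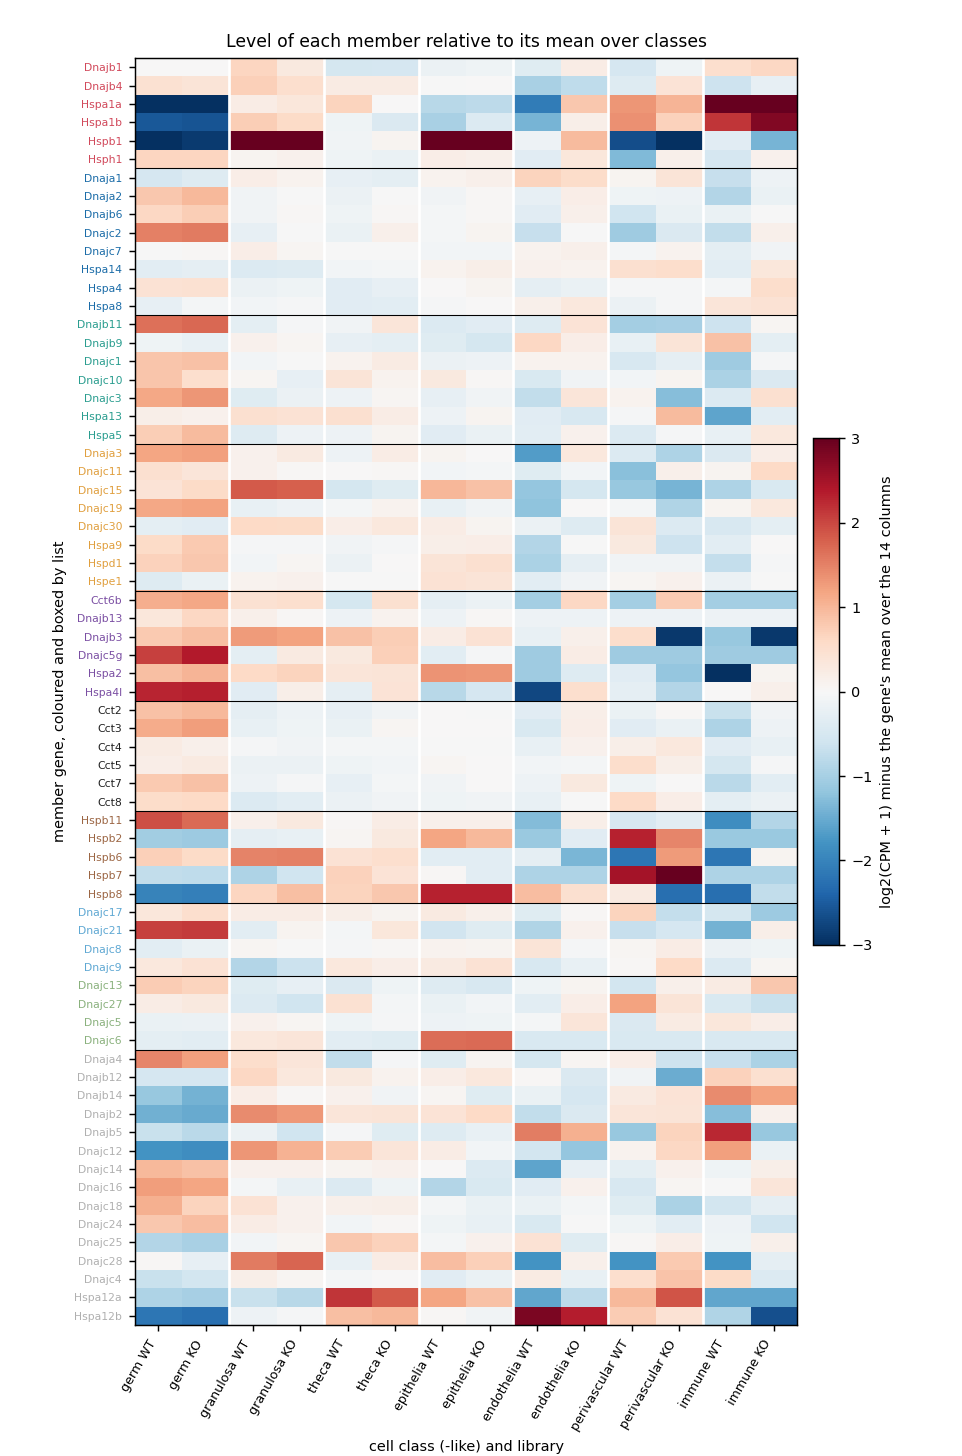
Level of each member with at least 100 UMIs (rows, coloured and boxed by list) in 7 cell classes with the WT and KO libraries side by side (columns), as log2(CPM + 1) minus the gene's mean over the 14 columns, with red above that mean, blue below it and the scale ending at -3 and 3. Hspb1 is high in granulosa-like and epithelia-like cells, Hspa4l in germ-like cells and Hspa2 in epithelia-like cells.

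Germ-like cells were split into 6 clusters, also without the members. From their markers, 3 were premeiotic-like (383 WT and 752 KO cells), Stra8-high-like (665 and 1364) and recombination-like (1533 and 2310). The other 3 kept the name of their leading gene: Map1a-led (986 and 1804 cells), Gm11985-led (1500 and 1851) and Sohlh1-led (1653 and 2000). The order used here came from marker lists and not from time, and the last, Sohlh1-led, showed only 2 advanced markers. The name Stra8-high-like also came from a whole list. Stra8 itself was at 1452 and 1439 CPM in premeiotic-like and 856 and 1093 CPM in Stra8-high-like cells of WT and KO. Rec8 was at 135 and 140 against 19.2 and 18.8 CPM. Germ cells mixed with somatic markers (68 and 114) were left out. The Sohlh1-led cells had a median of 16818 UMIs in WT and 7486.5 in KO, the widest depth gap of the 6.

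Hspa2 was highest in the Stra8-high-like and recombination-like clusters, and not in the premeiotic-like cluster, which held the most Stra8. Its level was 16.0 CPM (13.4 to 19) in WT and 23.0 CPM (20.3 to 25.9) in KO premeiotic-like cells. It was 42.1 and 38.9 CPM in Stra8-high-like, 39.2 and 36.9 in recombination-like, 21.1 and 18.8 in Map1a-led, 20.3 and 20.1 in Gm11985-led and 11.7 and 13.1 CPM in Sohlh1-led cells. In both libraries the Stra8-high-like and recombination-like clusters were the highest, with intervals that overlapped each other and those of no other cluster. The log2 ratio of the last cluster over the first was −0.45 in WT and −0.81 in KO, a size that depended on where the clusters were drawn.

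**Figure D4:**
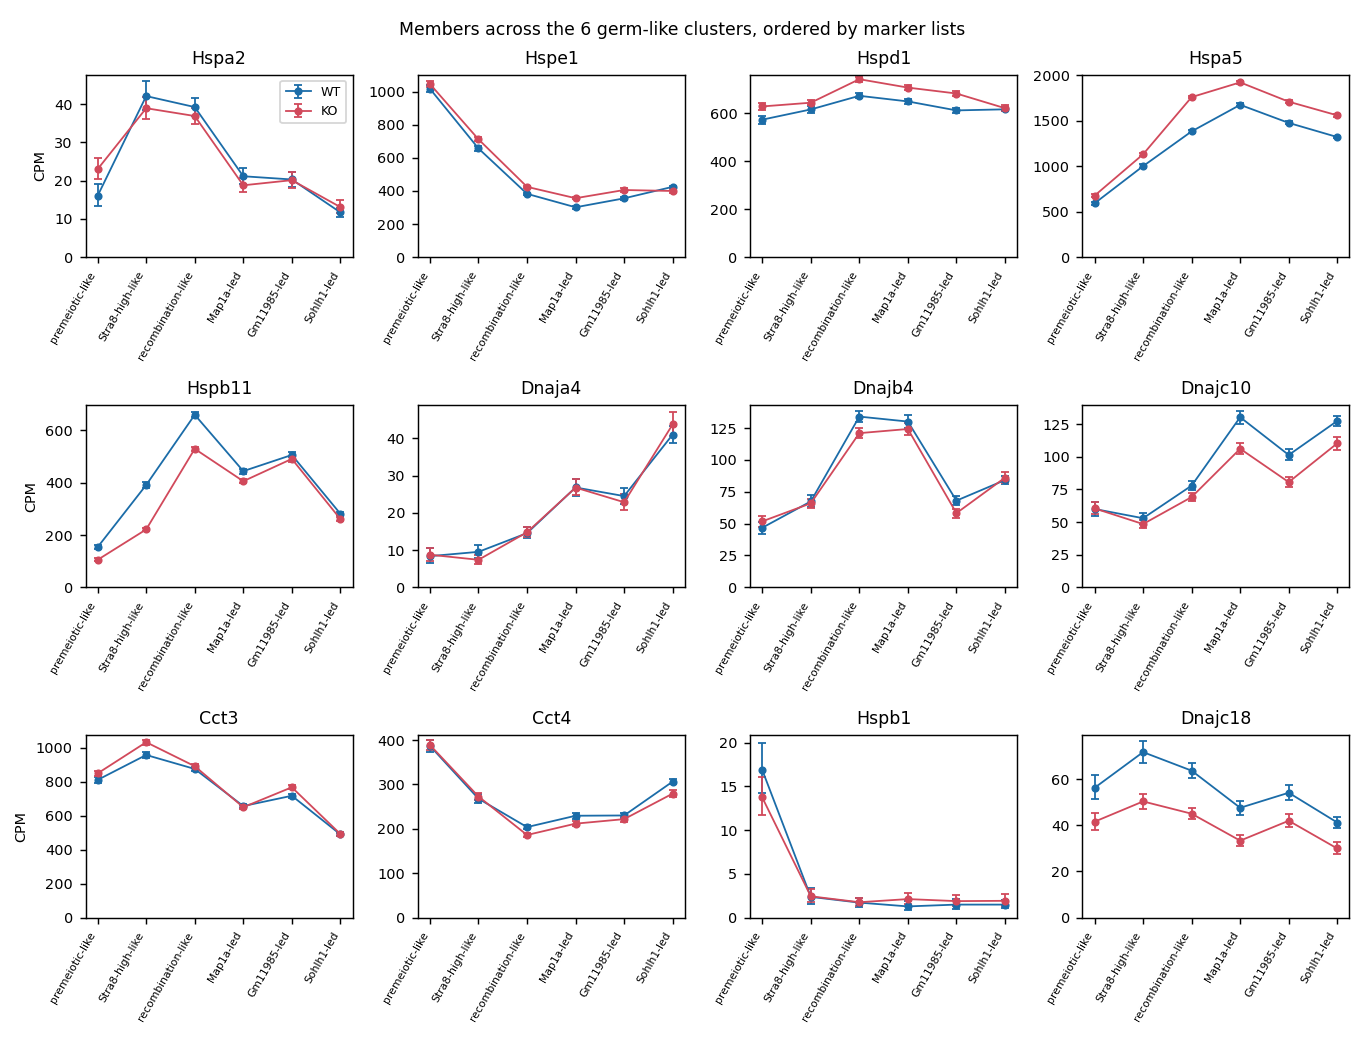
Level in CPM (y axis, linear from 0) of 12 members across the 6 germ clusters in marker order (x axis), in WT and KO, with exact 95% Poisson intervals. Hspa2 is highest in the Stra8-high-like and recombination-like clusters, Hspe1 in the premeiotic-like cluster and Dnaja4 in the Sohlh1-led cluster.

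Between the first and the last cluster, 56 members were counted, and 2 passed a log2 ratio of 1 upward in both libraries, against 12.4% of all genes, and 4 downward, against 8.84%. These are 3.57% and 7.14% of the members. Those higher in the last cluster were Dnaja4 and Hspa5. With finer clusters (resolution 1) the last one was smaller, with 78 WT and 16 KO cells, and Hspa5 in WT was then at 0.78, short of the limit, while Dnaja4 stayed past it (log2 2.87 and 2.82). Dnaja4 stood at 8.38 and 8.76 CPM in premeiotic-like cells, 14.6 and 14.8 in recombination-like, 26.8 in Map1a-led cells of both libraries and 41.0 and 43.8 CPM in Sohlh1-led cells (log2 2.29 and 2.32). Hspa5 went from 591 and 676 CPM in premeiotic-like cells to 1383 and 1760 in recombination-like and 1675 and 1922 in Map1a-led cells, with 1321 and 1559 CPM in Sohlh1-led cells (log2 1.16 and 1.21). Dnajb11 did not follow it, at 318 and 315 CPM in premeiotic-like, 477 and 455 in Stra8-high-like and 225 and 206 CPM in Sohlh1-led cells, nor did Dnajc3, which was lower in the last cluster than in the first (log2 −0.49 and −0.48). Dnajc10, a disulfide reductase of the endoplasmic reticulum, was higher in the last cluster in WT (127 against 60.0 CPM) and in KO (110 against 60.4 CPM), where it did not reach the limit.

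Hspe1, Hspb1, Dnajc4 and Dnajc5g were lower in the last cluster. With the finer clusters, Hspe1 (−0.93), Dnajc4 (−0.53) and Dnajc5g (−0.19) did not reach the limit in WT, and Dnajc4 was at 1.06 in the 16 KO cells. Dnajc4 in KO (−0.82) and Dnajc5g in WT (−0.87) also fell short with the members kept for clustering. Hspe1 was at 1018 and 1046 CPM in premeiotic-like, 657 and 712 in Stra8-high-like, 383 and 425 in recombination-like and 301 and 356 CPM in Map1a-led cells, and at 425 and 400 CPM in Sohlh1-led cells (log2 −1.26 and −1.39). Hspd1 stayed between 573 and 742 CPM in all 6 clusters of both libraries. The number of Hspe1 UMIs per Hspd1 UMI was accordingly 1.78 (1.71 to 1.84) in WT and 1.67 (1.62 to 1.72) in KO premeiotic-like cells, inside the range of the somatic classes without mixed cells. It was 1.07 and 1.11 in Stra8-high-like, 0.569 and 0.573 in recombination-like, 0.464 and 0.504 in Map1a-led, 0.581 and 0.595 in Gm11985-led and 0.690 and 0.644 in Sohlh1-led cells. Both libraries gave the same order from the first to the fourth cluster.

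Hspb1 was at 16.9 and 13.7 CPM in premeiotic-like cells and between 1.27 and 2.43 CPM in the other 5 clusters (log2 last over first −3.51 and −2.85). Summed granulosa markers over both libraries were 25.3 CPM in premeiotic-like cells and 18.7 to 23.1 CPM in the other 5, and the immediate early genes summed to 214 and 220 CPM in premeiotic-like cells against 81.3 to 183 CPM. Dnajc5g went from 14.3 and 16.5 CPM to 7.03 and 7.18 CPM (log2 −1.03 and −1.20), and Dnajc4 was lower by log2 −1.27 and −1.07. Hspa1a and Hspa1b had no more than 1.62 CPM in any cluster. Dnajb4 was highest in the middle of the order, at 46.8 and 51.8 CPM in premeiotic-like, 134 and 121 in recombination-like, 130 and 124 in Map1a-led and 84.2 and 86.0 CPM in Sohlh1-led cells. Dnajb1 was highest in recombination-like cells too (104 and 97.4 CPM) and lowest in Sohlh1-led cells (58.1 and 58.3 CPM).

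Among chaperonin subunits, none passed the limit, and the subunits took different courses. Cct3 was at 812 and 850 CPM in premeiotic-like, 959 and 1034 in Stra8-high-like and 490 and 492 CPM in Sohlh1-led cells, with log2 −0.73 and −0.79 from first to last. Cct4 was at 387 and 389 CPM in premeiotic-like, 204 and 186 in recombination-like and 306 and 279 CPM in Sohlh1-led cells, so its lowest cluster was not that of Cct3. Cct7 differed little between first and last (log2 0.04 and 0.05). Summed over the list, the level was 3345 and 3576 CPM in premeiotic-like and 2726 and 2765 CPM in Sohlh1-led cells. Hspb11 was lowest in premeiotic-like cells (154 and 105 CPM) and highest in recombination-like cells (660 and 530 CPM). Dnajc9, a chaperone of histones H3 and H4, was highest in premeiotic-like cells at 153 CPM in both libraries.

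The comparison of KO with WT asks whether loss of GR moved these genes. KO germ-like cells held larger shares of premeiotic-like (7.38% against 5.64%) and Stra8-high-like cells (13.4% against 9.80%). Their share of Sohlh1-led cells was smaller (19.6% against 24.4%). Ratios over all germ-like cells carry these shares, and their part was not tested. In germ-like cells 63 members were counted, and a log2 ratio of 0.5 was the limit. Dnajb13 alone was higher past it (1.59%, against 2.49% of all genes), and none was lower (against 5.43%). Dnajb13 rested on 50 UMIs in WT and 88 in KO (log2 0.80, 95% interval 0.29 to 1.33), and its ratio was 0.04 with each cell thinned to 3000 UMIs. Thinning leaves still fewer UMIs of this gene, so the thinned ratio cannot decide the call. The call stayed without called doublets, as a mean over cells and with median-of-ratios size factors. The median over the members was 0.05, beside −0.05 over all genes, and none of the 34 other pathway genes passed the limit. Among the stress-inducible members, the log2 ratios ran from −0.14 for Hspa1b to 0.25 for Hspb1 (3.44 against 4.10 CPM), with a median of −0.02.

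**Figure D5:**
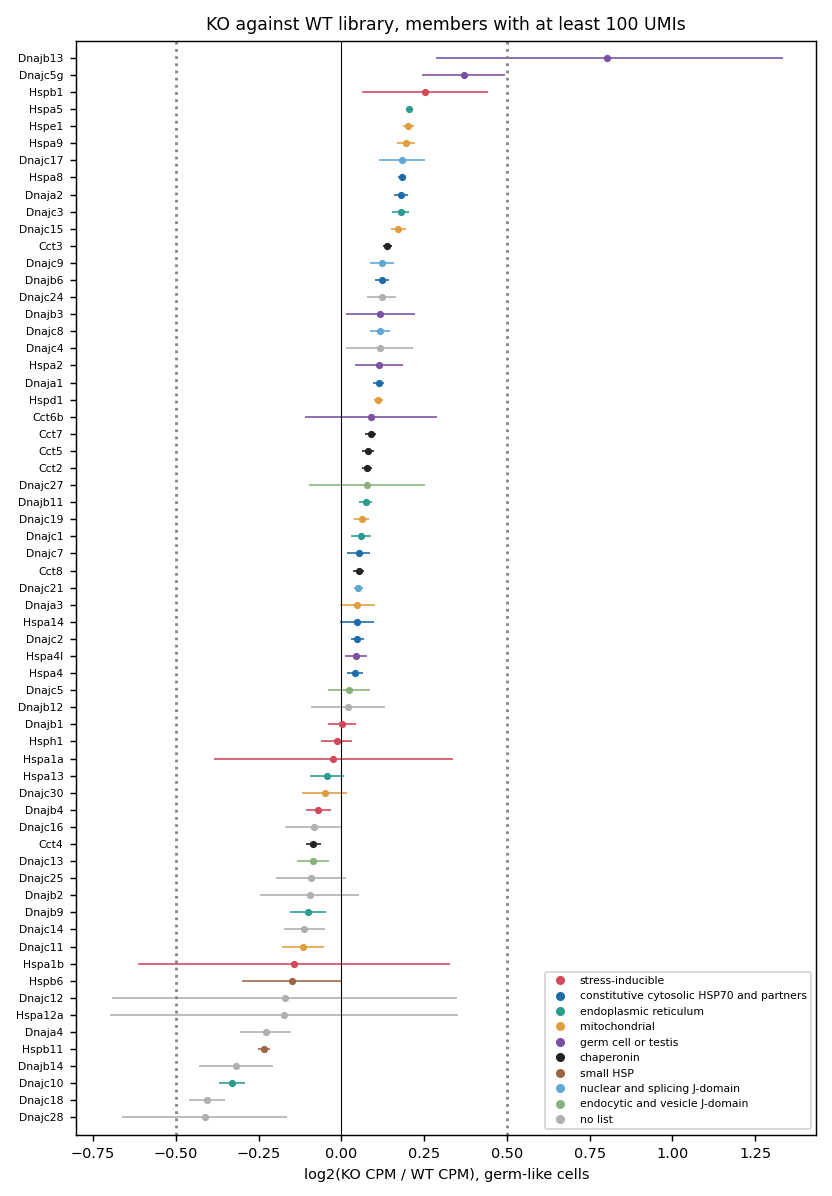
Log2 ratio of KO over WT in germ-like cells (x axis) for each member with at least 100 UMIs there, in order of the ratio (y axis) and coloured by list, with 95% intervals that cover counting error only and dotted lines at -0.5 and 0.5. Dnajb13 alone lies past these lines, and Dnajc28 and Dnajc18 have the lowest ratios.

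Below the limit, Dnajc18 was at 53.6 CPM (52.3 to 55.0) in WT and 40.5 CPM (39.4 to 41.6) in KO germ-like cells (log2 −0.41, −0.46 to −0.35). It was lower in KO in all 6 germ clusters, by log2 −0.37 to −0.51, and in granulosa-like cells (−0.31, −0.50 to −0.13), while the ratio was 0.01 (−0.22 to 0.23) in theca-like and −0.13 (−0.41 to 0.15) in epithelia-like cells. Dnajc18 lies on chromosome 18, 3.70 Mb from Nr3c1, so loss of GR and other differences of the targeted chromosome cannot be told apart. Hspa9 (mortalin), the mitochondrial HSP70 4.46 Mb from Nr3c1, was higher in KO germ-like cells, at 198 against 173 CPM (log2 0.20, 0.17 to 0.22).

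The ratio of Hspb11 was lowest in the early germ clusters. Its level was 154 CPM (145 to 162) in WT and 105 CPM (99.4 to 111) in KO premeiotic-like cells (log2 −0.55, −0.66 to −0.43), and 391 CPM (380 to 403) and 221 CPM (215 to 228) in Stra8-high-like cells (log2 −0.82, −0.88 to −0.76). The ratio was −0.32 in recombination-like cells and between −0.13 and −0.04 in the later 3. In granulosa-like cells it was 0.14 (0.05 to 0.23). The mean of Hspb11 over the 3 main somatic classes was 124 CPM in WT and 134 CPM in KO, but 85.5 and 84.1 CPM without mixed cells. Hspa2 was higher in KO premeiotic-like cells (log2 0.52, 0.22 to 0.83) and close to WT in the other clusters. The share of all genes past the limit was not counted within single clusters. In Stra8-high-like cells the early markers Stra8 (1093 against 856 CPM) and Dppa5a (295 against 211 CPM) were higher in KO. The recombination marker Prdm9 was higher there too (303 against 256 CPM). The part of stage inside a cluster was not tested.

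Hspa5 was higher in KO than in WT in the 4 large classes and in each germ cluster, with log2 0.21 (0.20 to 0.22) in germ-like cells, 0.24 in granulosa-like, 0.25 in theca-like, 0.15 in epithelia-like and at most 0.35 in recombination-like cells. Although Hspe1 was lower in KO than in WT Sohlh1-led cells, Hspa8 (0.18) and Hspe1 (0.20) were slightly higher over all KO germ-like cells. Dnajc10 was lower, at 79.6 against 100 CPM (log2 −0.33, −0.37 to −0.29), so members of the endoplasmic reticulum list went both ways. Dnajc5g (0.37, 0.24 to 0.50), Dnajc28 (−0.41, −0.66 to −0.16) and Dnajb14 (−0.32, −0.43 to −0.21) followed.

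In the somatic classes few members passed the same limit. Of 60 members counted in granulosa-like cells, Hspa4l was higher (against 3.32% of all genes) and none was lower (against 2.38%). Of 61 in theca-like cells, Hspa4l and Dnaja4 were higher (against 4.89%) and Hspa1a and Dnajc27, a small GTPase with a J-domain, were lower (against 1.94%). Of 58 in epithelia-like cells, Dnaja4 and Hspa1b were higher (against 2.29%) and none was lower (against 1.5%). With each cell thinned to 3000 UMIs, Dnaja4 was at log2 −0.62 in epithelia-like cells, where it had been 0.52, and at 0.27 in theca-like cells, where it had been 0.84. Dnajc27 in theca-like cells (−0.64) was at −0.38 under common limits on cells. Hspa4l, the germ cell gene, was at log2 0.53 in granulosa-like and 0.71 in theca-like cells, and at 0.16 and 0.32 without mixed cells, which were more frequent in KO.

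Hspa1a in theca-like cells was at 42.5 CPM in WT and 26.7 CPM in KO (log2 −0.67, −0.87 to −0.47), and the ratio was −0.42 without mixed cells. In immune-like cells it was also lower in KO (log2 −0.56, −0.92 to −0.21), while in granulosa-like cells it was slightly higher (33.6 against 31.2 CPM). The immune-like ratio leans on a single WT cell, which held 87 of the 164 UMIs of Hspa1a and Hspa1b in that class. The immediate early genes were lower in KO theca-like cells as well (log2 −0.41) and in granulosa-like (−0.30) and epithelia-like cells (−0.17). Their part in the Hspa1a difference was not tested. Dnajb1 was lower in KO granulosa-like cells (93.5 against 120 CPM, log2 −0.36, −0.46 to −0.26).

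Without mixed cells, no member passed the limit in granulosa-like cells (0 of 60, against 3.48% of all genes) or in theca-like cells (0 of 57, against 3.17%). In epithelia-like cells 2 of 55 did, Dnajc14 (log2 −0.61), which overlaps Sarnp on the same strand, and Hspa1b (0.63), against 3.03% of all genes. Over the members the median log2 ratio without mixed cells was −0.01 for granulosa-like cells, −0.0015 for the theca-like and 0.02 for the epithelia-like class.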

How the data were processed

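Single-cell libraries (10x 3′ chemistry) of E15.5 ovaries were compared, 1 for KO and 1 for WT. The deposited values are raw UMI counts per gene and cell barcode, made by the authors with Cell Ranger 3.0.2 per the file headers, and mm10 and Seurat 3.2.3 are named in the submitters' processing notes. How reads matching several genes were counted is not given in the sources used here. The members and gene lists, the limits and the tests were chosen with earlier results of these data known.

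The cell limits came from the study (WT 1500 to 6500 genes and 5500 to 40000 UMIs, KO 1200 to 5500 genes and 3000 to 30000 UMIs, under 10% mitochondrial UMIs). Counts were scaled to 10000 per cell and log transformed. Clustering in scanpy 1.11.5 (leidenalg 0.10.2) used 2000 variable genes without the members, 30 components, 20 neighbours and resolution 0.5. A cluster was named where 3 markers exceeded 2-fold (1.5-fold for germ stages). Doublets called by Scrublet were kept, and leaving them out was an alternative. Mixed cells were defined after seeing the data. UMIs were summed per class and library as counts per 1000000 UMIs (CPM). Ratios of KO over WT carry exact 95% conditional intervals and shares of cells exact Clopper-Pearson intervals (scipy 1.17.1). A gene was counted with at least 100 UMIs on both sides together (in each library for classes and clusters), and the limits were log2 0.5 between libraries and 1 between classes or clusters. Since cells are not replicates, no p-value is given. Named genes were all detected stress-inducible, chaperonin and germ cell members, the leading member of each other list, and up to 8 members per direction past a limit. Further members were named after their values were seen. Positions are from GENCODE M21 on GRCm38. The interval and counting steps were tested on simulated data. Alternatives were thinning to 3000 UMIs, common limits on cells, no doublets, a mean over cells, median-of-ratios scaling, members kept for clustering, at least 20 UMIs, a larger limit, germ clusters at resolution 1 and no mixed cells.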

Additional observations from a re-analysis of the deposited data

How the results depend on the processing

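Of 92 values recomputed under the alternatives for results that answer a comparison, 69 stayed within counting error or within 1.5 times the count, and 23 did not. The germ over soma median of the chaperonin list (log2 0.87 in WT and 0.84 in KO) was 0.93 and 0.96 with each cell thinned to 3000 UMIs, 0.95 and 1.01 without called doublets, 0.95 and 0.94 as a mean over cells, and 1.01 and 1.05 without mixed cells, an alternative chosen after seeing the data. In WT it was also 0.95 under common limits on cells and 0.79 with median-of-ratios size factors. The stress-inducible list (−1.91 and −1.87) was −1.65 and −1.67 in thinned cells. The ratio of the last over the first germ cluster for Hspa2 (−0.45 and −0.81) kept its sign and not its size. It was −1.35 and −0.21 in thinned cells, and −2.61 and −1.64 with germ clusters at resolution 1, whose last cluster held 78 WT and 16 KO cells. In WT it was −0.91 under common limits and −1.05 with the members kept for clustering. The 1 member past the limit between KO and WT germ-like cells (Dnajb13) became 2 in thinned cells (Hspb1 and Dnajc28, without Dnajb13), under common limits (with Hspb1) and with at least 20 UMIs (with Dnajb5), and 0 under the larger limit. The 26 members that differed between germ-like and somatic cells became 11 under the larger limit and 31 without mixed cells. Of the values of single members, 321 stayed within counting error, 191 did not, and 3 changed sign: Hspa4l in granulosa-like cells between KO and WT without called doublets (−0.12), Dnaja4 in epithelia-like cells in thinned cells (−0.62), and Dnajc4 between germ clusters of KO at resolution 1 (1.06). The cause was not tested, and thinning leaves few UMIs of Dnaja4 in epithelia-like cells. No paired analysis was possible because each group was 1 library, and for the same reason no replicate could be left out. Depth limits members under 100 UMIs, for which no difference could be read.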
